A study of Mus musculus with 32 samples.

Results

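The genes examined were 10 chemokine ligands, 9 of the CXC family (Cxcl1, Cxcl2, Cxcl3, Cxcl5, Cxcl9, Cxcl10, Cxcl12, Cxcl14 and Cxcl16) and the CX3C ligand Cx3cl1. They were found by symbol among the 41388 genes counted in each library, and all 10 were present. RNA was measured in 32 libraries of mouse sternal chondrocytes, the cartilage cells of the newborn rib cage, cultured without passage from C57BL/6 mice. Each of 16 groups held 2 libraries. Wild-type (WT) cells were left untreated, or received the LDHA inhibitor FX11 (40 µM), IL-1β (10 ng/mL), or both for 24 h. Cells homozygous for a loxP-flanked (f/f) allele of Ldha, Nampt or Nfkbiz were first infected for 24 h with an adenovirus carrying eGFP alone (GFP cells) or Cre with eGFP (Cre cells), after which IL-1β was added for 24 h or left out. All 12 f/f groups therefore carried virus. No WT cells received the Cre virus, so an effect of that virus and the deletion cannot be told apart within a line. Ldha encodes a subunit of lactate dehydrogenase, Nampt the enzyme that starts NAD salvage, and Nfkbiz the nuclear IκB family member IκBζ. The sources do not say that the 2 libraries of a group came from separate animals, so p-values measure only the spread between these samples, which may be technical.

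Chemokines are small secreted or membrane-anchored proteins that direct the migration of leukocytes through G protein-coupled receptors. Cxcl1, Cxcl2, Cxcl3 and Cxcl5 act on CXCR2 and draw neutrophils, Cxcl9 and Cxcl10 are the interferon-inducible ligands of CXCR3 on T cells, and Cxcl12 is the homeostatic ligand of CXCR4 and of the scavenging receptor ACKR3. Cxcl14 is an epithelial and stromal chemokine that is made in many tissues at rest. Cxcl16 and Cx3cl1 (fractalkine) are made as transmembrane proteins, are shed by the proteases ADAM10 and ADAM17, and bind CXCR6 and CX3CR1. Chondrocytes exposed to IL-1β are a known source of neutrophil-attracting chemokines, through NF-κB and the factors that assist it.

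Library totals ran from 15830658 to 39959888 counts. WT, Ldha f/f and Nampt f/f each had 1 library per group in each of 2 sets that differ in the style of their titles (12 and 20 libraries), and both Nfkbiz f/f libraries of a group were in the second set. In lists of 2 values below, the first is library 1 and the second library 2 of the group, which for WT, Ldha f/f and Nampt f/f are the first and the second set. Levels are CPM, counts relative to library size scaled by TMM across the 32 libraries. The targeted transcripts were lower with the Cre virus: with IL-1β, Ldha was 1552 ± 7.00 CPM (SD, n = 2) in GFP and 77.1 ± 5.94 in Cre cells of its line, Nampt was 67.9 and 5.17 in its line, and Nfkbiz was 232 ± 4.43 and 30.9 ± 2.00 in its line. The 10 chondrocyte markers all exceeded 1 CPM in every group. With IL-1β, their summed level was 26938–27359 CPM in GFP and 13893–14781 CPM in Cre cells of Ldha f/f, 26496–27129 and 14827–15197 CPM in Nampt f/f, and, the other way, 30688–32991 and 36947–39523 CPM in Nfkbiz f/f. The WT libraries of the second set labelled FX11 alone and IL-1β alone ran against their labels, since the former held high and the latter low levels of IL-1β-responsive genes. Both are kept under their labels, and WT results are given with and without them.

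The 4 CXCR2 ligands lie together on mouse chromosome 5 (GRCm38, plus strand): Cxcl5 at chr5:90759299-90761625, Cxcl3 at chr5:90786103-90788086, Cxcl1 at chr5:90891241-90893115 and Cxcl2 at chr5:90903899-90905909. Cxcl9 (chr5:92321331-92328079) and Cxcl10 (chr5:92346638-92348889) are neighbours on the minus strand of the same chromosome. The remaining genes are dispersed, with Cxcl12 at chr6:117168535-117181367 (plus), Cxcl14 at chr13:56288647-56296551 (minus), Cxcl16 at chr11:70453983-70459984 (minus) and Cx3cl1 at chr8:94772009-94782423 (plus). RefSeq promoter windows, from 250 bases before to 50 bases after the annotated start, were at hand for 8 of the 10 genes. Cxcl5 and Cxcl16 had none, so their promoters were not searched. Printed here are the 4 that hold the NF-κB consensus. These genes include 3 of the 4 CXCR2 ligands, whose response to IL-1β is described below, and Cxcl10, whose level in Nfkbiz f/f Cre cells moved the opposite way. They are given 5′ to 3′ on the strand of the gene, and capitals mark the matches to the consensus on either strand. The windows are chr5:90890995-90891294 for Cxcl1, chr5:90903649-90903948 for Cxcl2, chr5:90785851-90786150 for Cxcl3 and chr5:92348840-92349139 for Cxcl10.
Cxcl1: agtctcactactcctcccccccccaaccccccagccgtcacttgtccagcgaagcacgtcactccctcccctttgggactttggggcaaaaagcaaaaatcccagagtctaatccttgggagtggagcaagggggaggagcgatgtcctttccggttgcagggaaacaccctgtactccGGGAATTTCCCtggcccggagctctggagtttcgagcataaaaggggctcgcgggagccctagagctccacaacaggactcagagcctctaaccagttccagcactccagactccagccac
Cxcl2: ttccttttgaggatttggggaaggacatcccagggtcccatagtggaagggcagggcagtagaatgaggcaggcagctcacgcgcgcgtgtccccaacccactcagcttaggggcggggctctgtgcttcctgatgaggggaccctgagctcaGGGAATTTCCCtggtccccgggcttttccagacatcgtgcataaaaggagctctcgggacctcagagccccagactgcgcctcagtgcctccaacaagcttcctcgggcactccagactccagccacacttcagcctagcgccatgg
Cxcl3: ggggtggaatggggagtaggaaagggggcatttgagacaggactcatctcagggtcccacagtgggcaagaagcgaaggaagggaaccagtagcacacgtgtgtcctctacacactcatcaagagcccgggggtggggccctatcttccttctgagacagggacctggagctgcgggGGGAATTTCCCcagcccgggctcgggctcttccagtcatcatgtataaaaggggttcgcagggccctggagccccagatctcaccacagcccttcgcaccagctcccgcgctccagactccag
Cxcl10: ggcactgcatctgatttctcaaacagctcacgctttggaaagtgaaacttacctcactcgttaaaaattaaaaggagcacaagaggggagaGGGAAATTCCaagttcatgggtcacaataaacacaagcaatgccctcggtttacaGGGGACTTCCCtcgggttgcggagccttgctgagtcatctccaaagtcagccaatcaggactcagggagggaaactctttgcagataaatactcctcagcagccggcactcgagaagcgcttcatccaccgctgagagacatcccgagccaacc

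Cxcl1, Cxcl2 and Cxcl3 shared the same match, GGGAATTTCC, which starts 71, 97 and 73 bases before the start site respectively and overlaps a match on the other strand by all but 1 base. Cxcl10 held GGGAAATTCC, starting 159 bases before its start site, and GGGGACTTCC, starting 104 bases before it, the latter with an overlapping match, GGGACTTCCC, as well. Of 32851 mouse promoter windows of this length, 2779 (8.46%) held the NF-κB consensus on either strand. Cxcl10 also held the interferon-type motif GAAANNGAAA (3.44% of windows), as did Cxcl14, and the AP-1 motif TGANTCA (7.81% of windows), as did Cxcl9. TATAAA (13.6% of windows) was found in Cxcl3, Cxcl9 and Cx3cl1. A match describes letters in a window and says nothing of binding.

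The order of the 10 genes changed with IL-1β. On the scale of CPM per kilobase of exon, which allows levels of different genes to be compared, Ldha f/f GFP cells without IL-1β held most of Cxcl12 (15.0, mean of 2 libraries), then Cxcl14 (10.2 ± 1.63, SD, n = 2) and Cx3cl1 (5.93). The CXCR2 ligands were near or below 1 in these cells, with Cxcl1 at 1.03 and Cxcl5 at 1.00, not separated from each other or from Cxcl10 (0.947), and Cxcl2 at 0.145 and Cxcl3 at 0.0968. With IL-1β the first 4 places went to the CXCR2 ligands, Cxcl1 (421 ± 18.5), Cxcl5 (163 ± 25.7), Cxcl2 (31.7) and Cxcl3 (25.6). Cx3cl1 (15.1) and Cxcl14 (14.1) followed and overlapped, ahead of Cxcl12 (12.4), Cxcl10 (7.54), Cxcl16 (1.04) and Cxcl9 (0.556). In Ldha f/f Cre cells with IL-1β, Cxcl1 (96.9) and Cxcl5 (48.7) still led, but Cx3cl1 (20.4) and Cxcl14 (18.6) stood above Cxcl2 (10.3), and Cxcl16 (8.49) above Cxcl12 (5.38), Cxcl10 (5.06) and Cxcl3 (4.22), of which only neighbours in this order overlapped. In Nfkbiz f/f Cre cells with IL-1β, Cxcl1 (46.9) was followed by Cx3cl1 (14.7) and then by Cxcl10 (11.1), Cxcl14 (10.0), Cxcl5 (8.72) and Cxcl12 (7.34), whose neighbours in this order overlapped. Cxcl3 (0.986) and Cxcl9 (0.446) were lowest there.

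**Figure D1:**
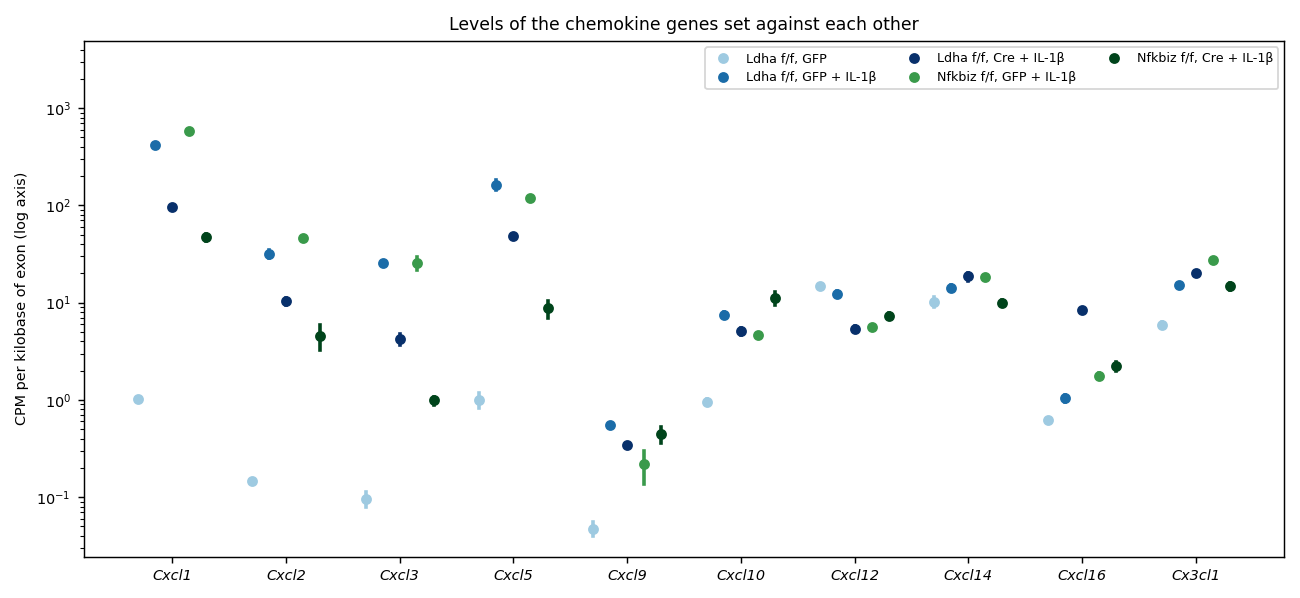
Level of each of the 10 chemokine genes in CPM per kilobase of exon (log axis) in 5 groups of Ldha f/f and Nfkbiz f/f cells. Points are means and bars the lower and higher of 2 libraries. Cxcl1 is highest in the 4 IL-1β groups, and Cxcl12 is highest in the Ldha f/f GFP cells without IL-1β, at 15.0.

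The CXCR2 ligands were almost silent in GFP cells at rest and far higher with IL-1β in every f/f line. Cxcl1 was 0.946 and 1.01 CPM in Ldha f/f GFP cells and 388 and 413 CPM with IL-1β. It went from 0.583 and 0.946 to 266 and 262 CPM in Nampt f/f, and from 0.534 and 0.548 to 581 and 529 CPM in Nfkbiz f/f cells. The resting and stimulated libraries were separated by more than 2 orders of magnitude in each line. The log2 fold changes of Cxcl1 were 8.68 ± 0.13 (SE), 8.56 ± 0.14 and 10.00 ± 0.19 in the Ldha, Nampt and Nfkbiz lines, with adjusted p = 1.24e-10 in Ldha f/f (edgeR quasi-likelihood test). Those of Cxcl2 were 7.74 ± 0.24, 8.40 ± 0.26 and 8.50 ± 0.38 and those of Cxcl5 7.38 ± 0.19, 6.42 ± 0.11 and 8.69 ± 0.23. The fold change of Cxcl3 was 7.94 ± 0.39 in Ldha f/f and 6.93 ± 0.26 in Nampt f/f cells. Several genes passed the filter of 1 CPM only through IL-1β libraries, and their IL-1β contrasts, in GFP and in Cre cells, are a description with no p. They were Cxcl2, Cxcl3 and Cxcl9 in every line, Cxcl1 in Nampt f/f and Nfkbiz f/f, and Cxcl5 and Cxcl10 in Nfkbiz f/f. GFP cells of Nfkbiz f/f had 2 Cxcl3 counts over both resting libraries, and the ratio to the stimulated libraries was 614 (95% interval from counting 169–5074).

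The Cre virus lowered the stimulated level of all 4 CXCR2 ligands in all 3 lines. With IL-1β, Cxcl1 was 91.9 and 92.8 CPM in Ldha f/f Cre cells, 58.2 and 60.8 CPM in Nampt f/f and 48.6 and 40.9 CPM in Nfkbiz f/f Cre cells. None of these overlapped the GFP libraries of its line, and the Cre cells held 23.0%, 22.5% and 8.06% of the GFP level. The log2 differences were -2.10 ± 0.09, -2.14 ± 0.09 and -3.65 ± 0.12. Cxcl5, which was 240.3 and 300.5 CPM in Ldha f/f GFP cells with IL-1β, was 80.0 and 81.4 CPM in the Cre cells. In Nampt f/f it was 286 and 301 against 86.2 and 79.6 CPM, and in Nfkbiz f/f 196 and 197 against 17.3 and 11.6 CPM. The share left of Cxcl5 was 29.8%, 28.2% and 7.35%.

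Cxcl2 and Cxcl3 were also lower in Cre cells of every line, and least was left in Nfkbiz f/f. Cxcl2 was 30.5 and 36.2 CPM in Ldha f/f GFP cells with IL-1β and 11.7 and 9.89 CPM in the Cre cells. It was 49.7 and 54.9 against 16.1 and 18.4 CPM in Nampt f/f, and 49.8 and 47.5 against 6.19 and 3.43 CPM in Nfkbiz f/f cells, so that 32.4%, 33.0% and 9.89% were left. Cxcl3 was 25.3 and 26.3 against 3.70 and 4.82 CPM in Ldha f/f, 25.3 and 25.6 against 4.31 and 4.21 CPM in Nampt f/f, and 29.5 and 21.8 against 0.902 and 1.09 CPM in Nfkbiz f/f cells. GFP and Cre libraries did not overlap for either gene. The shares left of Cxcl3, 16.5%, 16.8% and 3.88%, were the lowest of the 4 genes in each line. Over all their annotated transcripts, Cxcl2 and Cxcl3 share 5.84% and 4.29% of their 50-base words with another gene, mainly each other. These transcripts include sequence outside the counted exons, so the shares over the counted exons may differ. Only uniquely aligned reads were counted, so reads lying wholly in shared words may be missing from both genes.

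All 4 genes were still far higher with IL-1β in Cre cells. The log2 fold changes were 6.49, 7.11 and 7.33 for Cxcl1 and 5.60, 5.38 and 5.12 for Cxcl5 in Cre cells of the Ldha, Nampt and Nfkbiz lines. Cxcl3 had fold changes of 4.06 in Ldha f/f and 4.31 in Nampt f/f, and was at least 15.7-fold higher in Nfkbiz f/f Cre cells, where the resting libraries held none. Cxcl2 had a fold change of 5.92 in Ldha f/f Cre cells, and against 1 to 3 resting counts its ratios were 580.1 (160.2–4797) in Nampt f/f and 114 (31.2–947) in Nfkbiz f/f Cre cells. Without IL-1β, Cxcl1, Cxcl2 and Cxcl3 had few counts, which limits what could be called. Of the 4 genes only Cxcl5 was called for the Cre virus there. In Nampt f/f cells it was 3.27 and 3.78 CPM with GFP and 1.84 and 2.34 CPM with Cre (log2 difference -0.76, adjusted p = 0.00533). That call was lost without Cre library 1 (-0.57, adjusted p = 0.0664) and with limma's voom weights (adjusted p = 0.095).

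**Figure D2:**
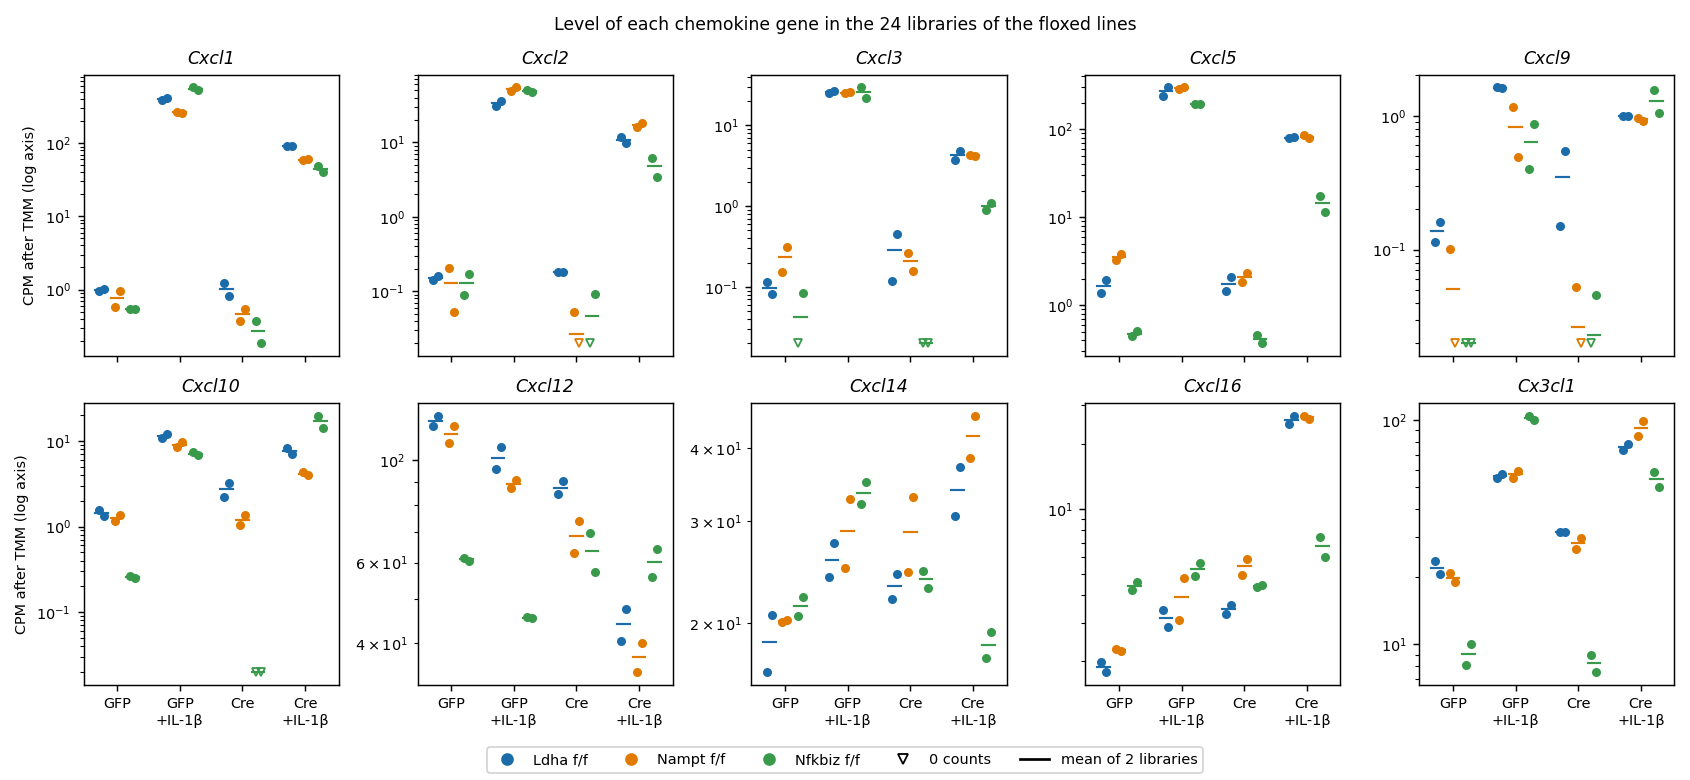
CPM (log axis) of the 10 chemokine genes in each of the 24 f/f libraries, by line, virus and IL-1β. Each point is 1 library, and triangles at the foot of a panel mark a count of 0. The CXCR2 ligands are high only in IL-1β libraries and lower in Cre than in GFP libraries there, for example Cxcl1 at 40.9–92.8 against 262–581 CPM.

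The CXCR3 ligands were expressed at low levels. With IL-1β, Cxcl10 changed in opposite directions in Cre cells of the Nampt and Nfkbiz lines, and Cxcl9 was not called in the Nampt line. Cxcl10 was 1.55 and 1.33 CPM in Ldha f/f GFP cells and 10.7 and 12.2 CPM with IL-1β. It went from 1.17 and 1.37 to 8.41 and 9.69 CPM in Nampt f/f, and from 0.267 and 0.253 to 7.37 and 6.78 CPM in Nfkbiz f/f GFP cells. The log2 fold changes were 2.98 ± 0.23, 2.87 ± 0.24 and 4.75 ± 0.33. With IL-1β, Cre cells of Nampt f/f had less Cxcl10, 4.28 and 4.00 CPM (log2 difference -1.10 ± 0.21, adjusted p = 0.0014). Cre cells of Nfkbiz f/f had more, 19.6 and 14.3 CPM, which is 239% of the GFP level (1.24 ± 0.20, adjusted p = 0.00138). In Ldha f/f Cre cells Cxcl10 was 8.30 and 7.08 CPM, with a difference of -0.55 ± 0.20 that missed the threshold (adjusted p = 0.0632) and passed it with the library set as a block (adjusted p = 0.0233), with voom weights (0.031) or with no filter (0.0463). A stretch of 133 of the 1520 exonic bases of Cxcl10 (8.75%) overlaps Art3, which itself stayed between 0.0299 and 0.894 CPM.

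Without IL-1β, Cxcl10 in Nfkbiz f/f cells had 12 counts over both GFP libraries and 0 over both Cre libraries, at least 3.72-fold lower, with adjusted p = 0.217. In Ldha f/f it was 2.24 and 3.26 CPM in Cre cells, a log2 difference of 0.89 (adjusted p = 0.0709) that was called with the library set as a block (0.0298) or with no filter on low counts (0.023). IL-1β raised Cxcl10 in Cre cells by 1.54 in Ldha f/f and 1.84 in Nampt f/f on the log2 scale. It was at least 267-fold higher with IL-1β in Nfkbiz f/f Cre cells, where the resting Cre libraries held none. Cxcl9, the other CXCR3 ligand, did not exceed 1.63 CPM in any f/f library. In GFP cells of Ldha f/f it was 0.115 and 0.161 CPM at rest and 1.63 and 1.60 CPM with IL-1β (log2 fold change 3.53 ± 0.63). In Nampt f/f GFP cells it was 0.101 and 0 CPM at rest and 1.16 and 0.494 CPM with IL-1β (3.63 ± 0.89), and in Nfkbiz f/f it was at least 10.5-fold higher. Its log2 differences between Cre and GFP cells with IL-1β were -0.67 ± 0.50, 0.16 ± 0.63 and 0.99 ± 0.58. Those in Ldha f/f and Nampt f/f were not called (adjusted p = 0.344 and 0.860). In Nfkbiz f/f, Cxcl9 passed the filter of 1 CPM only through the Cre libraries with IL-1β, so its difference there is a description with no p. Cxcl9 in Ldha f/f Cre cells was 0.149 and 0.543 CPM at rest and 0.992 and 1.00 CPM with IL-1β (log2 fold change 1.65). In the other lines resting Cre cells held 1 to 3 counts of Cxcl9, and the ratios were 32.2 (8.53–272) in Nampt f/f and 61.3 (10.6–2463) in Nfkbiz f/f.

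Cxcl12, the ligand of CXCR4 and ACKR3, was the only member that fell with IL-1β in GFP cells. In Nampt f/f GFP cells it was 109 and 119 CPM at rest and 87.1 and 90.6 CPM with IL-1β (-0.34 ± 0.10, adjusted p = 0.0188), and in Nfkbiz f/f GFP cells 61.5 and 60.6 against 45.7 and 45.4 CPM (-0.41 ± 0.11, adjusted p = 0.0183). In Ldha f/f it was 119 and 125 against 96.0 and 107 CPM, a difference of -0.27 ± 0.09 that was called only in some fits (adjusted p = 0.0572, and 0.00152 with the library set as a block). These differences are small, and leaving out any 1 of the compared Nfkbiz f/f libraries (adjusted p = 0.0762 to 0.114), or Nampt f/f GFP library 2 (0.126) or either of its IL-1β libraries (0.119 and 0.0539), ended the call. In Cre cells with IL-1β, Cxcl12 was lower still in Ldha f/f, at 40.5 and 47.5 CPM, and Nampt f/f, at 34.7 and 40.1 CPM, falling to 43.3% and 42.1% of the GFP level (-1.19 ± 0.10 and -1.24 ± 0.10). Cre cells of Nfkbiz f/f instead had 55.8 and 64.3 CPM, 132% of the GFP level (0.38 ± 0.11, adjusted p = 0.0374). That rise was lost without IL-1β-treated GFP library 1 (adjusted p = 0.174), GFP library 2 (0.187) or Cre library 2 (0.155). IL-1β lowered Cxcl12 in Cre cells of Ldha f/f (log2 fold change -0.95) and Nampt f/f (-0.83), with a difference of -0.07 (adjusted p = 0.683) in Nfkbiz f/f.

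Cxcl12 also fell with the Cre virus without IL-1β, from 119 and 125 to 84.5 and 90.1 CPM in Ldha f/f (-0.51, adjusted p = 0.0138) and from 109 and 119 to 63.0 and 74.0 CPM in Nampt f/f (-0.75, adjusted p = 4.57e-04). The Ldha f/f call was lost without Cre library 1 (adjusted p = 0.121), Cre library 2 (0.0565) or GFP library 2 (0.0552). Cxcl12 in Nfkbiz f/f cells was 69.6 and 57.3 CPM with Cre, a range that includes the GFP values. Fibroblasts and perichondrial cells also express Cxcl12. The summed level of their markers with IL-1β was 3221–3330.4 CPM in GFP and 1986–2012 CPM in Cre cells of Ldha f/f, 2811–2868 and 1701–1748 CPM in Nampt f/f, and 761–799 and 610.1–637 CPM in Nfkbiz f/f. Of the 6 listed, 5 fell in Ldha f/f (17.0% of all genes), 5 in Nampt f/f (23.4%) and 2 of 5 tested in Nfkbiz f/f (9.20%). The sum was lower with Cre in all lines, whereas Cxcl12 was lower in Ldha f/f and Nampt f/f and higher in Nfkbiz f/f. The part of these cells in the result was not tested. In bulk RNA, fewer cells of a type and less RNA per cell cannot be told apart.

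Cxcl14 rose modestly with IL-1β and diverged between the lines in Cre cells. With GFP it went from 16.5 and 20.7 to 24.0 and 27.5 CPM in Ldha f/f (0.47 ± 0.14, adjusted p = 0.0314), from 20.1 and 20.3 to 24.9 and 32.8 CPM in Nampt f/f (0.53 ± 0.16, adjusted p = 0.0289) and from 20.6 and 22.2 to 32.1 and 35.0 CPM in Nfkbiz f/f (0.66 ± 0.11, adjusted p = 8.8e-04). In Cre cells with IL-1β it was higher still in Ldha f/f, at 30.6 and 37.2 CPM (0.42 ± 0.14, adjusted p = 0.0404), and Nampt f/f, at 38.5 and 45.5 CPM (0.56 ± 0.16, adjusted p = 0.013). Cre cells of Nfkbiz f/f had 17.4 and 19.3 CPM, 54.6% of the GFP level (-0.89 ± 0.12, adjusted p = 1.87e-04) and below both resting GFP libraries. The rise of Cxcl14 with Cre was lost in Ldha f/f without IL-1β-treated GFP library 1 (adjusted p = 0.271) or Cre library 2 (0.288), and in Nampt f/f without the same libraries of its line (0.179 and 0.089). The rises of Cxcl14 with IL-1β were lost without Ldha f/f GFP library 1 (adjusted p = 0.188) or IL-1β library 2 (0.168), and without Nampt f/f GFP library 1 (0.107), GFP library 2 (0.0721) or IL-1β library 2 (0.214). Without IL-1β, edgeR called no difference in Cxcl14 between Cre and GFP cells. With the library set as a block it did, in Ldha f/f (0.31, adjusted p = 0.026) and Nampt f/f (0.46, adjusted p = 1.31e-04), and DESeq2 (0.5, adjusted p = 0.02), a fit with no filter on low counts and a fit without Cre library 1 called the Nampt f/f difference too.

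IL-1β raised Cxcl14 in Cre cells by 0.59 in Ldha f/f and 0.60 in Nampt f/f on the log2 scale. It lowered Cxcl14 in Nfkbiz f/f Cre cells, from 24.6 and 23.0 to 17.4 and 19.3 CPM (log2 fold change -0.37, adjusted p = 0.0391), a call that DESeq2 (adjusted p = 0.0764) and limma's voom weights (0.107) did not make and that was lost without Cre library 1 (0.154), Cre library 2 (0.111) or IL-1β library 1 (0.0958). The Ldha f/f rise was lost without Cre library 1 (0.065) or IL-1β library 2 (0.0872), and the Nampt f/f rise without Cre library 1 (0.0888) or IL-1β library 2 (0.0714).

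Cxcl16, a transmembrane ligand of CXCR6, had the largest rise of the 10 genes from GFP to Cre cells with IL-1β in Ldha f/f and Nampt f/f. In Ldha f/f it was 1.98 and 1.78 CPM in GFP cells, 3.42 and 2.87 CPM with IL-1β, 3.28 and 3.62 CPM with Cre alone, and 24.6 and 26.7 CPM with Cre and IL-1β. Nampt f/f cells had 2.26 and 2.21, 3.09 and 4.82, 4.99 and 5.89, and 26.8 and 26.0 CPM in the same order. The libraries with both Cre and IL-1β stood far above the rest of their line. Relative to GFP cells with IL-1β, Cxcl16 rose 8.15-fold in Ldha f/f (log2 3.04 ± 0.16, adjusted p = 7.27e-07) and 6.68-fold in Nampt f/f (2.79 ± 0.19, adjusted p = 6.8e-07). In Nfkbiz f/f it was 4.91 and 5.65 CPM in GFP and 7.43 and 6.04 CPM in Cre cells with IL-1β, a difference of 0.33 ± 0.20 that was not called (adjusted p = 0.298).

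Without IL-1β, Cxcl16 rose with Cre by 0.85 in Ldha f/f (adjusted p = 0.0208) and 1.26 in Nampt f/f (adjusted p = 0.00202). The Ldha f/f call of Cxcl16 was lost without any 1 of the 4 compared libraries (adjusted p = 0.0744 to 0.122) and with voom weights (0.119). In GFP cells IL-1β raised Cxcl16 by 0.75 ± 0.17 in Ldha f/f (adjusted p = 0.00987) and 0.81 ± 0.22 in Nampt f/f (adjusted p = 0.0163), calls that voom weights did not make (adjusted p = 0.0602 and 0.0702). They were lost without Ldha f/f IL-1β library 1 (0.0865), Nampt f/f GFP library 1 (0.0735) or Nampt f/f IL-1β library 2 (0.122). The difference in Nfkbiz f/f GFP cells was 0.27 ± 0.21 (adjusted p = 0.374). IL-1β raised Cxcl16 in Cre cells by 2.93 in Ldha f/f, 2.33 in Nampt f/f and 0.62 in Nfkbiz f/f (adjusted p = 0.049), the last not called by DESeq2 (0.0739) or voom weights (0.108) and lost without Cre library 1 (0.137), Cre library 2 (0.166) or IL-1β library 1 (0.176).

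A stretch of 552 of the 3021 exonic bases of Cxcl16 (18.3%) overlaps Zmynd15, and the sources do not say whether reads were counted by strand. Zmynd15 was lower than Cxcl16 in each of these groups and moved with it in the Ldha and Nampt lines. With IL-1β it was 1.36 and 0.800 CPM in GFP and 5.76 and 4.17 CPM in Cre cells of Ldha f/f, 1.44 and 1.61 against 4.50 and 4.17 CPM in Nampt f/f, and 1.60 and 0.913 against 0.945 and 1.39 CPM in Nfkbiz f/f. The paper counted only reads that were uniquely aligned and unambiguous. Whether those of the shared stretch were dropped or assigned by strand is not given. Endothelial markers moved with Cxcl16 as well. Their summed level with IL-1β was 5.24–5.74 CPM in GFP and 17.1–21.2 CPM in Cre cells of Ldha f/f, 6.85–7.61 and 23.2–26.4 CPM in Nampt f/f, and 3.78–5.01 and 7.05–7.83 CPM in Nfkbiz f/f. Most of the sum in Cre cells was Kdr, the VEGF receptor (1.69 and 1.65 against 17.7 and 14.0 CPM in Ldha f/f), whereas Pecam1, which marks all endothelium, was 1.15 and 2.07 against 1.16 and 0.602 CPM. Of 4 endothelial markers tested, 1 rose in Ldha f/f, 2 rose and 1 fell in Nampt f/f, and 0 of 3 changed in Nfkbiz f/f. Of all genes, 16.9%, 25.0% and 8.16% rose and 17.0%, 23.4% and 9.20% fell in these lines. The part of endothelial cells in the result was not tested.

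Cx3cl1, the membrane-bound ligand of CX3CR1, rose with IL-1β in every f/f line. In GFP cells it went from 23.4 and 20.5 to 54.9 and 57.2 CPM in Ldha f/f, from 20.7 and 18.9 to 54.9 and 59.2 CPM in Nampt f/f, and from 8.10 and 10.0 to 104 and 100 CPM in Nfkbiz f/f. The log2 fold changes were 1.35 ± 0.09, 1.54 ± 0.10 and 3.50 ± 0.14. With Cre and IL-1β it was 73.0 and 78.3 CPM in Ldha f/f, 135% of the GFP level (0.45 ± 0.09, adjusted p = 0.00283), and 85.0 and 98.7 CPM in Nampt f/f, 161% (0.70 ± 0.10, adjusted p = 1.28e-04). In Nfkbiz f/f it fell to 58.5 and 50.3 CPM, 53.4% of the GFP level (-0.92 ± 0.12, adjusted p = 2e-04). No GFP library overlapped the Cre libraries of its line. Without IL-1β, Cx3cl1 was 31.7 and 31.6 CPM in Ldha f/f Cre cells (0.51, adjusted p = 0.0114) and 26.5 and 29.9 CPM in Nampt f/f Cre cells (0.49, adjusted p = 0.00801). Both rises were lost on leaving out a library: in Ldha f/f without Cre library 1 (0.0763), Cre library 2 (0.0661) or GFP library 2 (0.0545), and in Nampt f/f without Cre library 2 (0.0636). IL-1β raised Cx3cl1 in Cre cells by 1.29 in Ldha f/f, 1.75 in Nampt f/f and 2.73 in Nfkbiz f/f on the log2 scale.

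**Figure D3:**
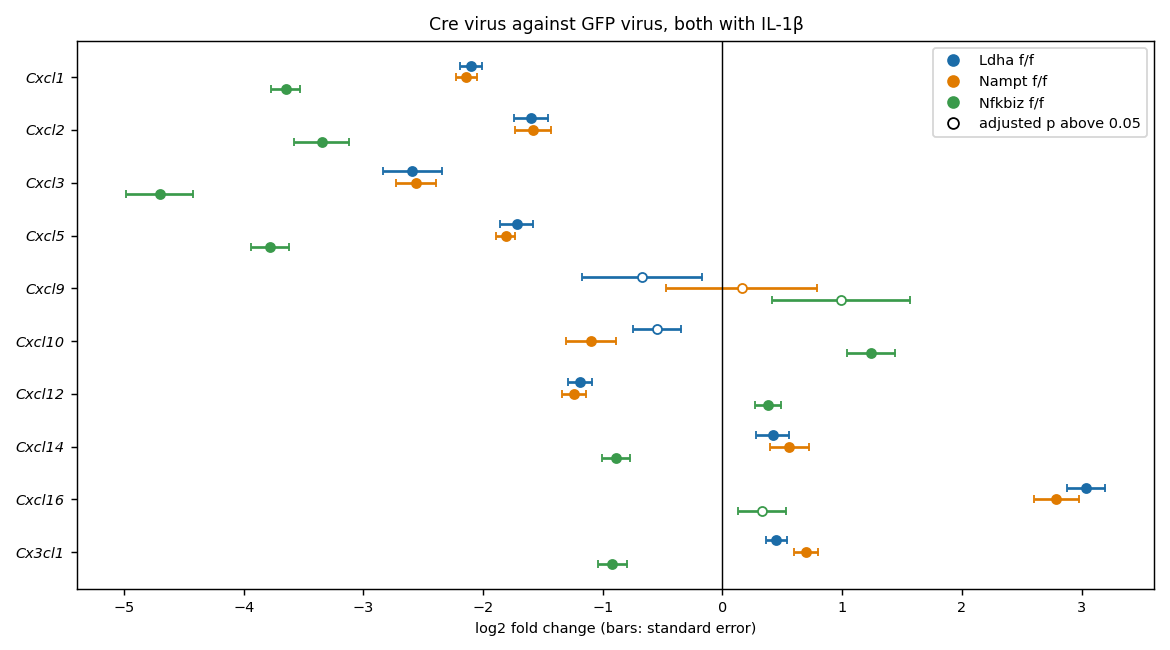
Log2 difference between Cre and GFP cells, both with IL-1β, for each of the 10 chemokine genes in the Ldha, Nampt and Nfkbiz lines. Points are edgeR estimates, bars ± 1 SE (2 against 2 libraries), and open markers have an adjusted p above 0.05. The 4 CXCR2 ligands are below 0 in all lines (Cxcl1 at -2.10, -2.14 and -3.65), and Cxcl16 is at 3.04, 2.79 and 0.33.

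Counted over the 10 genes, IL-1β in GFP cells raised 9 and lowered 0 in Ldha f/f, raised 9 and lowered 1 in Nampt f/f, and raised 8 and lowered 1 in Nfkbiz f/f. Among all genes tested the higher and lower shares were 14.5% and 13.3%, 17.7% and 17.3%, and 15.2% and 11.7%. Since 3, 4 and 6 of the 10 genes in these lines passed the filter of 1 CPM only through an IL-1β library, the counts over IL-1β contrasts, in GFP and in Cre cells, are a description, and nothing is read from them against the shares of all genes. With IL-1β, the Cre virus raised 3 and lowered 5 in Ldha f/f (all genes 16.9% and 17.0%), raised 3 and lowered 6 in Nampt f/f (25.0% and 23.4%), and raised 2 and lowered 6 in Nfkbiz f/f (8.16% and 9.20%). The median log2 difference over the 10 genes was -0.93, -1.17 and -0.91, beside -0.02, -0.03 and -0.01 over all genes tested. A single model over all 32 libraries, which takes in the wide spread of the WT groups, called 1, 1 and 0 of the 10 genes for Cre with IL-1β. Without IL-1β, Cre raised 2 and lowered 1 in Ldha f/f (3.43% and 2.09%), and 5 were called with the library set as a block. It raised 2 and lowered 2 in Nampt f/f (8.30% and 6.07%). Cre moved 0 genes in Nfkbiz f/f by edgeR (0.111% and 0.150%), with 2 at an unadjusted p under 0.05 and 0 by DESeq2 and by voom weights. In Cre cells, IL-1β raised 8 and lowered 1 in Ldha f/f (19.5% and 16.3%), raised 9 and lowered 1 in Nampt f/f (24.3% and 19.6%), and raised 8 and lowered 1 in Nfkbiz f/f (11.7% and 10.3%).

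Whether the response to IL-1β itself differed between Cre and GFP cells was tested with an interaction term. The log2 response of Cxcl1 was smaller in Cre than in GFP cells, with differences of -2.19 in Ldha f/f, -1.45 in Nampt f/f and -2.68 in Nfkbiz f/f, and so was that of Cxcl5 (-1.78, -1.04 and -3.57). The response of Cxcl3 was also smaller (-3.88 in Ldha f/f and -2.62 in Nampt f/f), but its size rested on few resting counts. In Ldha f/f these were 4 and 2 with GFP and 4 and 10 with Cre. In Nampt f/f they were 6 and 6 with GFP and 10 and 4 with Cre. The response of Cxcl12 was lower in the same 2 lines (-0.68, adjusted p = 0.01, and -0.49). The Cxcl2 term was -1.82 ± 0.51 in Ldha f/f, 0.56 ± 0.81 in Nampt f/f and -1.94 ± 1.72 in Nfkbiz f/f. It too rested on few resting counts. Cxcl16 responded more strongly in Cre cells, by 2.19 in Ldha f/f (adjusted p = 3.57e-04) and 1.52 in Nampt f/f. In Nfkbiz f/f the responses of Cxcl14 (-1.03) and Cx3cl1 (-0.77) were lower in Cre cells. The Cxcl10 term there is a description only, and its size cannot be read because resting Cre libraries were at 0. The Cxcl10 response in Ldha f/f was smaller, with a difference of -1.43 (adjusted p = 0.0172). In Nampt f/f the Cxcl10 term, -1.03, missed the threshold (adjusted p = 0.0521) and passed it with the library set as a block (0.0288). Interaction terms take in the IL-1β contrasts, and 3, 4 and 6 of the 10 genes passed the filter of 1 CPM only through IL-1β libraries. The terms of those genes are a description with no p, and nothing is read from the counts against the shares of all genes. In all, 6, 5 and 5 of the 10 genes were called, beside 11.5%, 22.0% and 5.19% of all genes tested. On leaving out 1 library the last share rested on 344 to 1892 genes, beside 797 with all libraries. The 6, 5 and 5 take in terms that are a description only. These were Cxcl3 in Ldha f/f, Cxcl1 and Cxcl3 in Nampt f/f, and Cxcl1, Cxcl5 and Cxcl10 in Nfkbiz f/f. On leaving out 1 library, some of them did not stay past the threshold. Cxcl3 missed it in Ldha f/f without Cre library 2 and in Nampt f/f without Cre library 1. Cxcl1 missed it in Nfkbiz f/f without Cre library 1, and in Nampt f/f without GFP library 1 or Cre library 2 and with voom weights. Of the other terms, voom weights ended the calls of Cxcl5 (adjusted p = 0.0663) and Cxcl10 (0.0574) in Ldha f/f and of Cx3cl1 in Nfkbiz f/f (0.0526). The last was also lost without 5 of the 8 libraries in turn (0.0594 to 0.173), Cxcl12 in Nampt f/f without 4 of 8 (0.0802 to 0.0924), and Cxcl10 in Ldha f/f without 3 of 8 (0.061 to 0.0644).

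The Cre effect with IL-1β differed between Nfkbiz f/f and each of the other lines for 9 of the 10 genes. The fit over the 24 f/f libraries, with the library set as a covariate, placed the Cre effect on Cxcl1 in Nfkbiz f/f below that in Ldha f/f (-1.52 ± 0.12, adjusted p = 2.04e-09) and in Nampt f/f (-1.47 ± 0.12, adjusted p = 2.63e-09). For Cxcl2, Cxcl3 and Cxcl5 the differences from Ldha f/f were -1.73 ± 0.25, -2.07 ± 0.34 and -2.03 ± 0.16, and those from Nampt f/f were -1.72 ± 0.24, -2.10 ± 0.34 and -1.94 ± 0.16. Cxcl10 and Cxcl12 differed the other way, by 1.81 ± 0.26 and 1.60 ± 0.12 from Ldha f/f and by 2.38 ± 0.27 and 1.66 ± 0.12 from Nampt f/f. Cxcl16 differed by -2.65 ± 0.24 and -2.42 ± 0.24, Cxcl14 by -1.27 ± 0.14 and -1.41 ± 0.14, and Cx3cl1 by -1.34 ± 0.14 and -1.58 ± 0.14. Cxcl9 was not called against either line (1.69 ± 0.82, adjusted p = 0.137, and 0.87 ± 0.85, adjusted p = 0.453). Among all genes tested, 27.0% and 36.3% were called in these comparisons. The Cre effect on cell type markers differed between the same lines as well: 9 of 10 chondrocyte markers (medians of 1.18 or more on the log2 scale) and 5 of 6 fibroblast and perichondrial markers (0.76 and 0.87) were higher in Nfkbiz f/f than in Ldha f/f and in Nampt f/f, and 0 were lower. Their part in the chemokine differences was not tested.

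Between the Ldha and Nampt lines, edgeR, DESeq2 and voom weights each called 0 of the 10 genes, and 1 had an unadjusted p under 0.05. Of all genes, 0.538% were called. The differences (Ldha f/f minus Nampt f/f) were 0.05 ± 0.12 for Cxcl1, 0.01 ± 0.23 for Cxcl2, -0.03 ± 0.29 for Cxcl3 and 0.10 ± 0.15 for Cxcl5. Of the others, Cxcl9 was at -0.82 ± 0.81, Cxcl10 at 0.57 ± 0.27 (adjusted p = 0.376), and the remaining 4 ran from -0.24 (Cx3cl1) to 0.24 (Cxcl16). The transcript of Nfkbiz itself was lower in Cre cells of the other lines. With IL-1β it was 171 ± 8.94 CPM in GFP and 68.3 ± 1.98 in Cre cells of Ldha f/f (log2 difference -1.30), and 203 ± 0.843 against 64.3 ± 4.86 in Nampt f/f (-1.64), beside -2.93 in its own line. Since Nfkbiz f/f libraries came from 1 library set only, the covariate for the set was estimated from the Ldha f/f and Nampt f/f libraries.

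**Figure D4:**
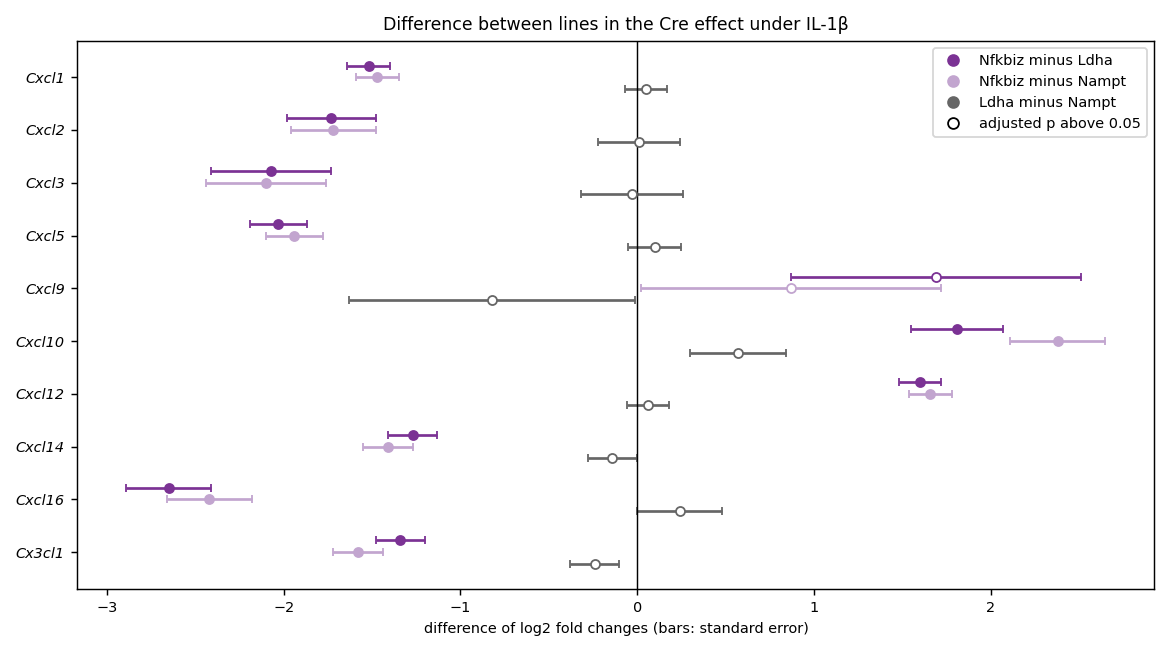
Differences between lines in the Cre effect with IL-1β (log2, ± 1 SE) for the 10 chemokine genes, from 1 edgeR fit over 24 f/f libraries. Open markers have an adjusted p above 0.05. Values for Nfkbiz f/f against either other line run from -2.65 (Cxcl16, against Ldha f/f) to 2.38 (Cxcl10, against Nampt f/f), while those for Ldha f/f against Nampt f/f are all open.

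The rest of the pathway was read from lists of related genes. For Cre with IL-1β, the shares of all genes called higher and lower, against which each count stands, were 16.9% and 17.0% in Ldha f/f, 25.0% and 23.4% in Nampt f/f, and 8.16% and 9.20% in Nfkbiz f/f. Of 9 chemokine receptors, 4, 4 and 3 were expressed enough to be tested in the Ldha, Nampt and Nfkbiz lines, and 1 fell in each line in Cre cells with IL-1β. This was Ackr3, which binds and removes Cxcl12: it went from 80.3 to 37.2 CPM in Ldha f/f (log2 -1.09), from 74.3 to 32.7 in Nampt f/f (-1.17) and from 58.7 to 19.3 in Nfkbiz f/f (-1.62). Cxcr2, the receptor of the neutrophil-attracting ligands, stayed under 1 CPM in every f/f library. Of the shedding proteases, Adam17 fell in Ldha f/f (-0.27) and Nampt f/f (-0.45) and differed by -0.16 in Nfkbiz f/f, where it was not called. Of 6 other CXC ligands, 2 could be tested (Pf4 and Ppbp). Pf4, the platelet factor also made by macrophages, fell in Nampt f/f (-1.32) and Nfkbiz f/f (-1.40) and differed by -0.34 in Ldha f/f. The macrophage marker sum with IL-1β was 41.2–42.3 CPM in GFP and 30.2–32 CPM in Cre cells of Ldha f/f, 32.9–38.9 and 24.2 CPM in Nampt f/f, and 64.1–66.2 and 57.9–60.4 CPM in Nfkbiz f/f. Of 7, 5 and 6 macrophage markers tested, 0 rose and 1, 2 and 1 fell, and their part in the chemokine differences was not tested.

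The list of 11 NF-κB and IκB genes holds subunits of NF-κB and its inhibitors and regulators. With IL-1β in GFP cells, 10, 10 and 9 of them rose and 0 fell. Of all genes tested, 14.5%, 17.7% and 15.2% rose there and 13.3%, 17.3% and 11.7% fell. In Cre cells with IL-1β, 4 rose and 3 fell in Ldha f/f (all genes 16.9% and 17.0%), 7 rose and 2 fell in Nampt f/f (25.0% and 23.4%), and 2 rose and 3 fell in Nfkbiz f/f (8.16% and 9.20%), with medians of 0.09, 0.29 and -0.18. Nfkbiz is on this list and is among those that fell in each line, in its own line as the deleted gene. Nfkbia, which encodes the inhibitor IκBα, rose by 0.72 in Ldha f/f and 0.98 in Nampt f/f and differed by -0.27 in Nfkbiz f/f. Nfkbie rose in all lines (0.97, 1.30 and 1.15). Bcl3 fell in the Ldha line (-0.46) and the Nfkbiz line (-1.10). Of 13 genes of interferon signalling and response, among them the ligand gene Ifnb1 and the receptor genes Ifnar1 and Ifngr1, 12, 12 and 11 were tested. With IL-1β, 4 rose and 2 fell in Ldha f/f (16.9% and 17.0% of all genes), 4 rose and 1 fell in Nampt f/f (25.0% and 23.4%), and 1 rose and 1 fell in Nfkbiz f/f (8.16% and 9.20%). Without IL-1β, 8 of them rose in Ldha f/f Cre cells (3.43% of all genes), 2 in Nampt f/f (8.30%) and 0 in Nfkbiz f/f (0.111%), and none fell. Of 5 genes that regulate mRNA stability (Zfp36, Zfp36l1, Zc3h12a, Rc3h1 and Elavl1), 3 fell in each line (17.0%, 23.4% and 9.20% of all genes), among them Zc3h12a, the endonuclease Regnase-1 (-1.47 in Nfkbiz f/f). Of the genes next to the chemokine cluster on chromosome 5, 3 of 9, 4 of 9 and 3 of 8 tested fell (17.0%, 23.4% and 9.20% of all genes) and 0 rose, including the growth factors Ereg (-2.90) and Areg (-3.25) in Nfkbiz f/f.

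The genes whose level over the 32 libraries was most like that of each member were ranked by Pearson's r of log2(CPM + 1). The libraries split into stimulated and resting ones, so a high r mostly reflects a shared response to IL-1β, and no test was applied. Over the 14255 genes compared, the pattern of Cxcl1 was nearest to those of Zc3h12a (0.987), the acute-phase gene Saa3 (0.987) and Cxcl2 (0.987), and that of Cxcl2 to Cxcl1, the iron-binding protein gene Lcn2 (0.986) and the metal transporter gene Slc11a2 (0.983). Cxcl3 was nearest to Cxcl2 (0.971), the inducible nitric oxide synthase Nos2 (0.970) and Irak3 (0.969), and Cxcl5 to Cxcl2 (0.982), Il13ra1 (0.980) and Cxcl1 (0.976). Cx3cl1 was nearest to Bcl3 (0.938) and Nfkbia (0.931). Cxcl16 was nearest to none of the chemokines but to Tbc1d24 (0.928), Plin3 (0.926), a lipid-droplet protein gene, and Tecpr1 (0.923). Cxcl10 (Ctbp2, 0.874), Cxcl14 (Isyna1, 0.832) and Cxcl12 (Abcc9 and Lyl1, both 0.795) had less similar neighbours. Cxcl9 was too low to be included.

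In WT cells the purpose was to see what the LDHA inhibitor FX11 did to the IL-1β response without virus. In the first set, Cxcl1 was 2.75 CPM untreated, 4.50 with FX11, 1557 with IL-1β and 1511 with both. In the second set it was 0.147 untreated, 440.3 in the library labelled FX11, 0.523 in the library labelled IL-1β and 509 with both. Cxcl5 showed the same reversal, at 8.83, 9.79, 998 and 867 CPM in the first set and 3.60, 708, 2.17 and 282 CPM in the second, as did Cxcl2 (67.8 against 0.149 CPM in the libraries labelled FX11 and IL-1β) and Cxcl3 (20.9 against 0). Cx3cl1 was 126 and 13.6 CPM in these libraries.

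Comparing the first-set libraries alone, which has no replicate, the library with IL-1β and FX11 held levels of the CXCR2 ligands similar to that with IL-1β, at 148 and 103 CPM for Cxcl2, 96.4 and 105 CPM for Cxcl3 and 867 and 998 CPM for Cxcl5. Cxcl14 was 16.7 against 50.4 CPM, Cxcl12 49.1 against 95.8 CPM, and Cxcl16 4.99 against 6.41 CPM. edgeR called 0 of the 10 genes in each of the WT comparisons, namely IL-1β (0% of all genes), FX11 (0%), both against none (0%) and FX11 added to IL-1β (0%), and also 0 without both second-set libraries that ran against their labels. At an unadjusted p under 0.05 there were 2, 0, 2 and 0 of the 10 genes, and 5, 1, 5 and 0 without both libraries. DESeq2 called 0, 0, 1 and 0, and voom weights 0.

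**Figure D5:**
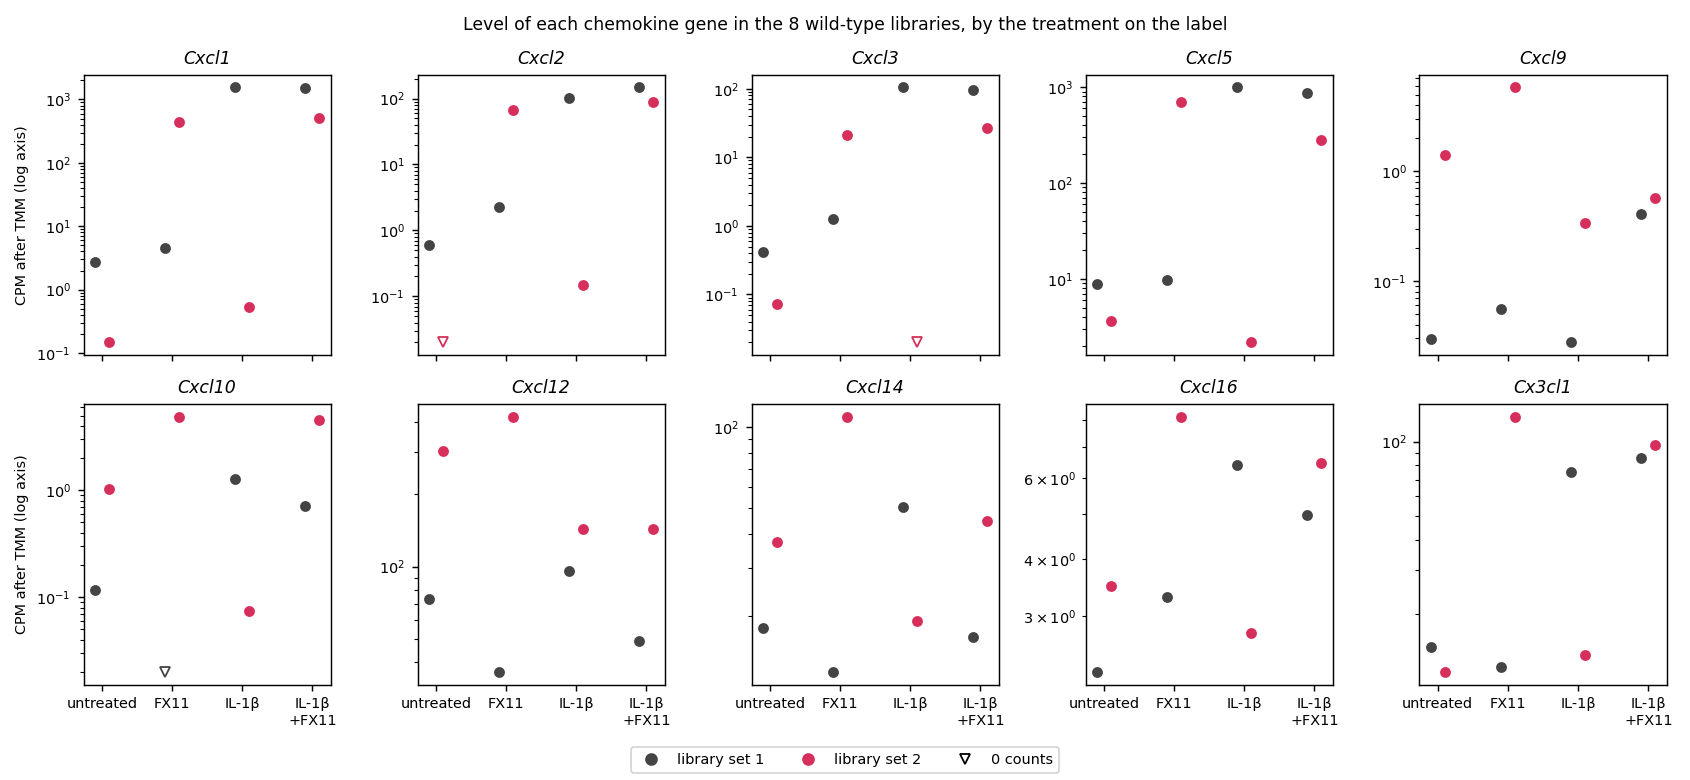
CPM (log axis) of the 10 chemokine genes in the 8 WT libraries by labelled treatment, with the first and second library set marked separately. In the second set the library labelled FX11 is high and that labelled IL-1β low, as for Cxcl1 (440.3 and 0.523 CPM), opposite to the first set (4.50 and 1557 CPM).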

How the data were processed

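Each of the 32 files lists, per Ensembl gene, a read count, a CPM and an RPKM. The authors aligned reads of rRNA-depleted libraries to GRCm38 and counted those that were uniquely aligned and unambiguous per gene. The deposited CPM and RPKM are those counts relative to library size and, for RPKM, to gene length, and only the counts were used here. The strand setting of the counting is not given in the sources used here. Symbols came from GENCODE release M21 (40340 of 41388 genes, 1048 unnamed). Ribosomal RNA genes (355) were left out and genes above 1 CPM in at least 1 library of a fit were tested.

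Each line (8 libraries) was fitted with edgeR 4.0.16 (TMM scaling, quasi-likelihood test, Benjamini-Hochberg adjusted p of at most 0.05), and differences between lines over 24 libraries with the library set as a covariate. The SE is the log2 fold change divided by the root of F. Scripts were tested on simulated data. DESeq2 1.42.0, limma 3.58.1 (voom with quality weights) and other scalings and filters served as alternatives. Folds against a group at 0 used a floor of 3 counts over the group, and against 1 to 3 counts an exact 95% interval. Intervals and floors cover counting error only. Chi-square tests compared the 2 libraries of each group and showed no duplicate within a group. Libraries of different groups were not compared in this way. Libraries of 1 set deviated together in Ldha f/f (r of 0.44 to 0.71 over 6 pairs of groups) and Nampt f/f (0.5 to 0.67), so the set pairs those libraries; the correlations were -0.29 to 0.73 in WT and -0.43 to 0.14 in Nfkbiz f/f. The 10 genes were all named, with listed genes where a result turned on them. Genes and lists were chosen with earlier results of these data known.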

Additional observations from a re-analysis of the deposited data

Results flagged for a closer look

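The effect of the Cre virus with IL-1β differed between f/f lines for 9 of the 10 genes, by a test of the difference itself (edgeR, log2 difference with adjusted p). Nfkbiz f/f minus Ldha f/f gave -1.52 for Cxcl1 (2.04e-09), -1.73 for Cxcl2 (1.26e-05), -2.07 for Cxcl3 (7.86e-05) and -2.03 for Cxcl5 (1.94e-09). It gave 1.81 for Cxcl10 (1.45e-05), 1.60 for Cxcl12 (6.07e-10) and -1.27 for Cxcl14 (2.82e-07). For the transmembrane ligands it gave -2.65 for Cxcl16 (1.28e-08) and -1.34 for Cx3cl1 (7.96e-08).

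Nfkbiz f/f minus Nampt f/f gave -1.47 for Cxcl1 (2.63e-09), -1.72 for Cxcl2 (6.60e-06), -2.10 for Cxcl3 (4.03e-05) and -1.94 for Cxcl5 (2.74e-09). It gave 2.38 for Cxcl10 (3.63e-07), 1.66 for Cxcl12 (2.39e-10) and -1.41 for Cxcl14 (3.54e-08). For the transmembrane ligands it gave -2.42 for Cxcl16 (4.32e-08) and -1.58 for Cx3cl1 (4.02e-09). No group had enough libraries for a test of single outlying libraries.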

How the results depend on the processing

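Of 2136 log2 fold changes of the 10 genes in the f/f lines under the alternatives, 1917 kept their sign and side of the threshold, 155 dropped below it and 20 rose past it. Another 44 changed sign, all of them called in neither fit. In WT, where edgeR called 0 of the 10 genes, the median log2 fold change of the 10 genes for IL-1β went from 1.23 to -1.05 without IL-1β library 1, and that for FX11 added to IL-1β from 0.34 to -0.07 without IL-1β library 2. Fitting all 32 libraries in 1 model brings in the WT libraries that ran against their labels. There the number of the 10 genes called was 4 in Ldha f/f and 4 in Nampt f/f for IL-1β with GFP, 0 and 0 for Cre without IL-1β, 1, 1 and 0 (Nfkbiz f/f) for Cre with IL-1β, 4, 4 and 2 for IL-1β with Cre, and 1, 0 and 0 for the interaction, and 5 for FX11 with IL-1β against untreated WT. With the library set as replicate block, 5 genes were called for Cre without IL-1β in Ldha f/f, where 3 were called without it. The block also called Cxcl12 (IL-1β with GFP), Cxcl10 (Cre with IL-1β) and Cxcl9 (IL-1β with Cre) in Ldha f/f, and Cxcl14 (Cre without IL-1β) and Cxcl10 (interaction) in Nampt f/f. The Cxcl9 contrast is a description only, since the gene passed the filter there only through IL-1β libraries. The block changed no other call. Without a filter, 1 gene (Cxcl10) was called for Cre without IL-1β in Nfkbiz f/f, and DESeq2 called 1 for FX11 with IL-1β in WT. The cause of these changes was not tested. Leaving out 1 library gave 0–2 genes for Cre without IL-1β in Ldha f/f, 3–5 for the interaction in Nampt f/f and 3–5 in Nfkbiz f/f. The group's remaining library was then assumed to vary like the others.

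Over all genes, the block moved the number called for Cre without IL-1β from 877 to 1994 in Ldha f/f and from 2319 to 4311 in Nampt f/f, and the interaction from 1825 to 3374 and from 3552 to 5648. The difference between the Ldha and Nampt lines called 90 genes, 183 by DESeq2, 666 by voom weights, 353 with no filter and 23 without the library set, and leaving out a library gave 19–36. Leaving out a library moved the number called for Cre without IL-1β in Ldha f/f from 877 to 289–622, and in Nfkbiz f/f that for Cre with IL-1β from 2666 to 1290–3733, for IL-1β with Cre from 3391 to 1523–4605 and for the interaction from 797 to 344–1892, so the shares of all genes set beside these counts move too. Cre without IL-1β in Nfkbiz f/f called 40, 71 by DESeq2 and 170 with no filter. Depth limits Cxcl2, Cxcl3 and Cxcl9 at rest, and in Nfkbiz f/f also Cxcl1, Cxcl5 and Cxcl10. Over the 32 libraries, 3 counts are worth up to 0.19 CPM.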
